A study of Mus musculus with 49 samples.

Results

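Additional ssODN experiment 1 is a further assay of Cas9 cutting with guide sgRNA2 and a single-stranded donor oligonucleotide (ssODN) in the multi-promoter TRIP pool, and it is compared here with the reported ssODN experiment at the same integrated reporters (IRs). An IR was kept where both experiments held at least 30 reads of it, which left 1744 of the 3532 IRs listed in any table of the pool, each represented by its barcode entry with most reads. At 1633 of the 1744 IRs both experiments had at least 1 mutated read, and the shares of lesion classes were computed there. The question was how far knock-ins, deletions, insertions and complex lesions divide the mutated reads of an IR in the same way when the labels name the same guide, an ssODN and the same pool.

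The cells are mouse embryonic stem (mES) cells of line EBRTcH3 that express the tetracycline-controlled transactivator (EStTA). TRIP, a method that places many barcoded reporters across a genome in parallel, gave them EGFP reporters behind 1 of 7 promoters, integrated by the PiggyBac transposase. In both experiments the pool received SpCas9 and sgRNA2 from a plasmid with an mCherry marker, together with the ssODN, and the target region was sequenced with unique identifiers (UIDs) on the amplicons. The reported experiment has 12 samples, 1 for each UID library, merged by the authors in 1 table, and additional experiment 1 is 1 sample labelled with 12 UIDs.

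The labels do not give the ssODN dose of either experiment, and the Methods describe different ssODN amounts for transfection without saying which experiment had which. The deposited counts of additional experiment 1 carry another number in their name than those of the other sgRNA2 assays. These, which share a number, are the reported experiment, additional experiments 2 to 4 and the assay of sgRNA2 without ssODN. What the number stands for is not stated, and if it marks a batch, batch and experiment cannot be told apart. The Methods mention triplicate assays with replicates merged and the reporting form 12 replicates, whose relation to the UID libraries is not stated. Neither table separates replicates, so the difference between the experiments has no replicate check. It is given as means with the SD over IRs and as counts of IRs in each direction. The pool was grown from a limited number of founder cells with several IRs each, so IRs of the same founder share their cells and are not independent.

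A double-strand break made by Cas9 is mostly closed by end joining, which works without a template and often leaves small deletions or insertions. When a donor with homology to both sides of the break is present, homology-directed repair can copy the donor's central stretch into the locus, and that precise product is called a knock-in. Both routes, and perfect religation, compete for the same break. Apart from that, the shares of the lesion classes add up to all mutated reads. By arithmetic alone, a share gained by a lesion class is therefore a share lost by the others.

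The sequences of the guide target, the uncut site and the donor show what a knock-in read had to carry. In the target of sgRNA2 the capitals mark the PAM, the short motif next to the target that Cas9 requires. In the wild-type site the capitals mark the 15 bases that the donor replaces, and in the ssODN they mark the 21 bases of the insert. Only the inner 20 bases of each donor arm are shown.
sgRNA2 target and PAM: cgccgggatcactctcggcaTGG
Wild-type site: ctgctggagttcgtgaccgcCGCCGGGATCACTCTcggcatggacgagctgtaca
ssODN insert with inner arms: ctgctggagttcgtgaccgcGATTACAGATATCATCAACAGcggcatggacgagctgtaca
The replaced 15 bases are the start of the target, and the last 5 bases of the target and the PAM are left in place. A knock-in therefore makes the site 6 bases longer. The wild-type site was read from wild-type reads of a TRIP cell line with the same reporter gene, of which 58728 of 59587 held the target and the PAM.

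Additional experiment 1 held 947244 reads in 10811 barcode entries of 3454 IRs, and the reported experiment 2224925 reads in 7983 entries of 2933 IRs. At the 1744 compared IRs they held 886650 and 2186390 reads, yet the median IR had more reads in additional experiment 1, 201 against 105.5. The reads of the reported experiment were concentrated on few IRs, with up to 137474 reads at an IR against 14760. IRs with fewer than 100 reads made up 19.2% of the compared IRs in additional experiment 1 and 47.9% in the reported experiment.

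Additional experiment 1 had fewer reads at the compared IRs but more mutated reads, and the cause was not tested. It held 399724 mutated reads and the reported experiment 140367. Knock-in reads numbered 71716 and 7184. The median IR had 50 mutated reads in additional experiment 1 and 22 in the reported experiment, so shares of single IRs are less precise in the reported experiment.

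**Figure D1:**
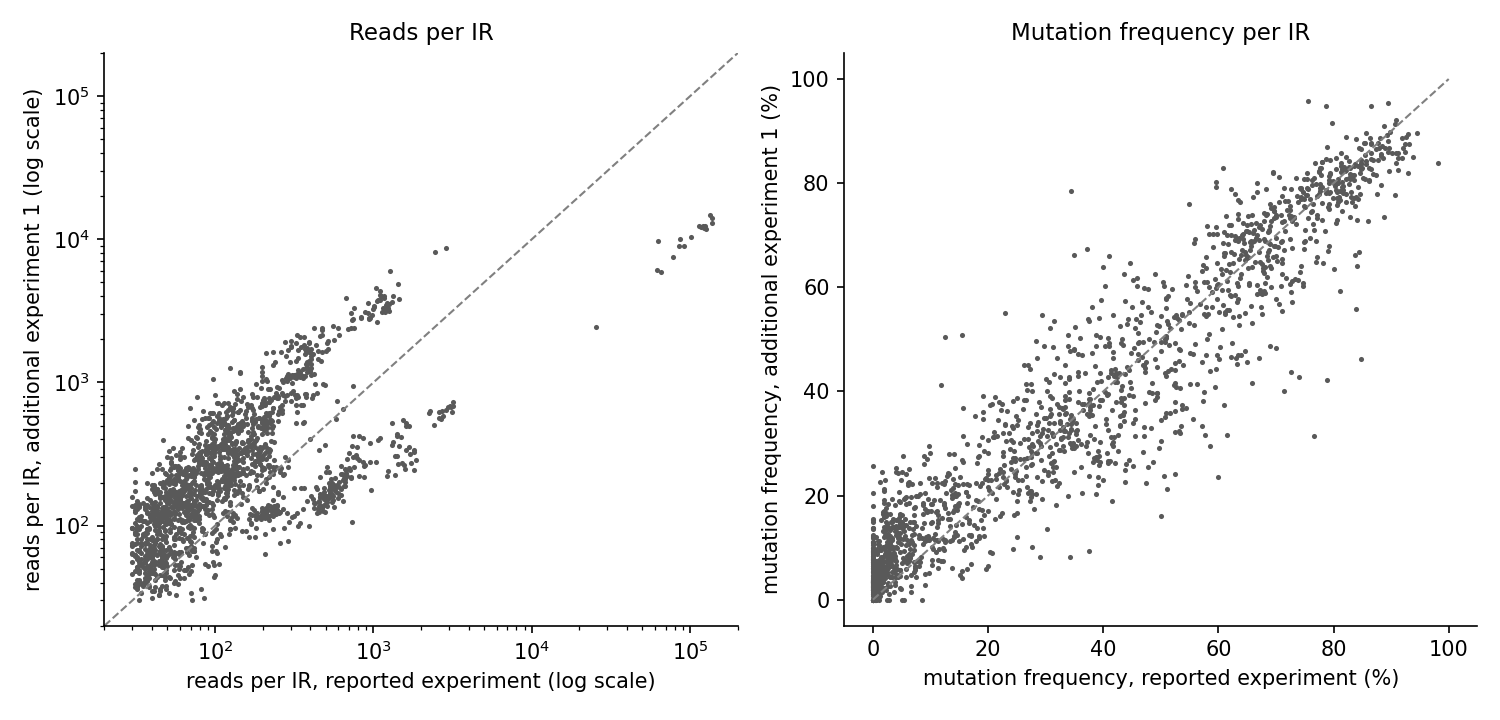
Reads per IR (left, log axes) and mutation frequency per IR (right, %) in additional experiment 1 against the reported experiment, with 1 point for each of 1744 IRs and a dashed line of equality. Mutation frequencies lie around the line (r = 0.954), while 18 IRs with at least 25468 reads in the reported experiment stand apart in reads.

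Mutation frequency, the percentage of reads of an IR that are not wild-type, was on average similar in both experiments, but not at the least mutated IRs. Its mean over the 1744 IRs was 34.9% ± 27.3 (SD) in additional experiment 1 and 33.4% ± 29.4 in the reported experiment. The mean difference was 1.46 points with an SD of 8.81 over IRs, and the frequency was higher in additional experiment 1 at 1102 IRs, lower at 630 and equal at 12. IRs were read in the same libraries, at unlike depths, and those of the same founder share their cells. Over these 1744 IRs, not all independent, ranks of cutting were similar in both experiments, with Pearson's r of 0.954 and Spearman's rho of 0.946. Even so, 823 IRs lay in different bins of mutation frequency, 10 points wide, in the 2 experiments, and 52.8% in the same bin. At the 530 IRs with a mean mutation frequency below 10% it was 6.08% ± 4.24 in additional experiment 1 and 2.10% ± 2.49 in the reported experiment. With reads pooled over all 1744 IRs it was 45.1% against 6.42%, and without the 18 most read in the reported experiment, a set chosen after seeing the data, 55.2% against 29.9%.

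Knock-ins took a much larger part of the mutated reads in additional experiment 1. Their mean share over 1633 IRs was 12.2% ± 10.3 against 2.78% ± 5.83 in the reported experiment, a difference of 9.41 points and a ratio of 4.38. The share was higher in additional experiment 1 at 1221 IRs and lower at 63, and at the other 349 IRs neither experiment had a knock-in read. IRs without any knock-in read numbered 368 in additional experiment 1 and 1024 in the reported experiment, and 1 and 219 among the 728 IRs with at least 30 mutated reads in both.

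The difference was also present where single IRs were well measured. At the 728 IRs with at least 30 mutated reads in both experiments, the mean knock-in share was 16.6% ± 7.20 against 4.33% ± 4.74, and it was higher in additional experiment 1 at 711 IRs and lower at 16. At the 288 IRs with at least 100 mutated reads in both, it was 18.1% ± 6.27 against 5.99% ± 4.02, a ratio of 3.03, and 286 of 288 IRs had the higher share in additional experiment 1. The difference in points was 9.41 at all 1633 IRs, 12.3 at the 728 and 12.1 at the 288. IRs with more mutated reads are on average also the more mutated IRs.

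IRs were spread more widely than counting of independent reads gives, in both experiments. At the 288 IRs the SD of the knock-in share over IRs was 6.27 points in additional experiment 1, where counting of reads alone gives 1.63, and 4.02 in the reported experiment, where it gives 1.59. Without separate replicates, and with the part of UIDs in the counts not stated, other noise could not be measured. The shares of the 288 IRs ranged from 2.64% to 31.6% in additional experiment 1 and from 0% to 25.9% in the reported experiment. IRs with a high share in one experiment tended to have a high share in the other, with r of 0.513 and rho of 0.515. The IRs were read in the same libraries and those of the same founder share their cells, so they are not independent. Over all 1633 IRs r was 0.256 and rho 0.464, and over the 728 IRs with at least 30 mutated reads in both 0.433 and 0.480.

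**Figure D2:**
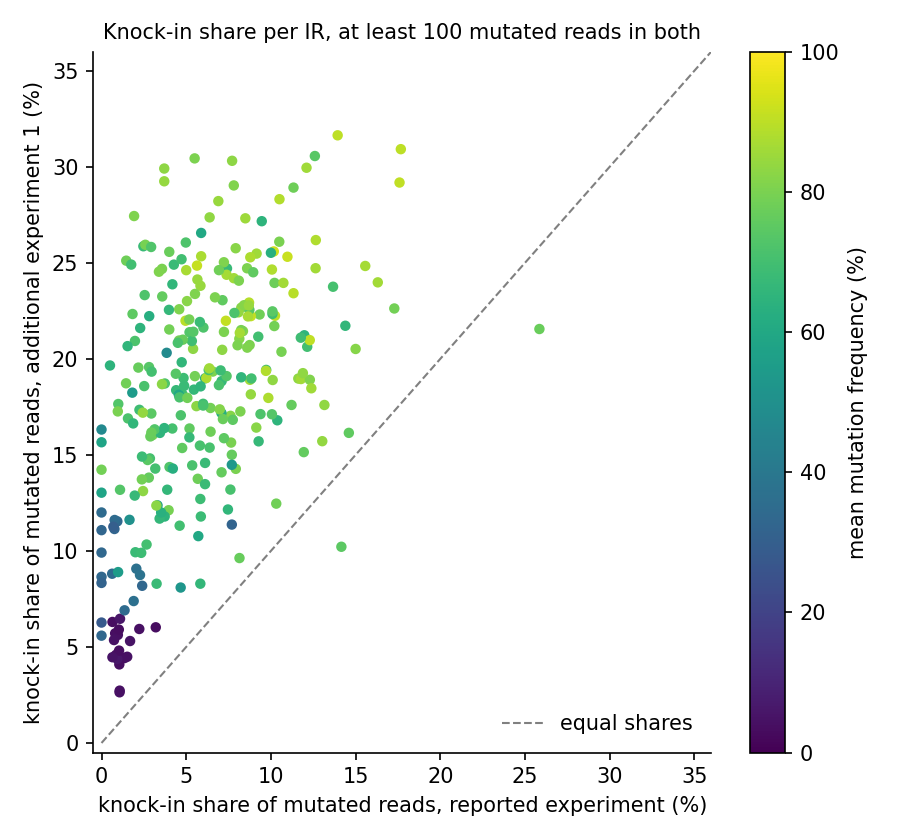
Knock-in share of mutated reads (%) in additional experiment 1 against the reported experiment, with 1 point for each of 288 IRs with at least 100 mutated reads in both, coloured by mean mutation frequency (%). The dashed line marks equal shares, and 286 IRs lie above it and 2 below.

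The deletion share was lower in additional experiment 1, by more points than the knock-in share was higher. The insertion share was higher as well. The mean deletion share was 62.0% ± 16.6 in additional experiment 1 and 75.8% ± 21.0 in the reported experiment, a difference of -13.8 points, with a lower share at 1310 IRs and a higher share at 285. The mean insertion share was 17.3% ± 13.1 against 11.2% ± 14.8, a difference of 6.12 points, with a higher share at 1146 IRs and a lower share at 376. Deletions were the most frequent lesion class in both experiments.

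Complex lesions, reads that carry a mixture of changes, were the class that differed least. Their mean share was 8.52% ± 8.42 in additional experiment 1 and 10.2% ± 15.6 in the reported experiment, a difference of -1.73 points, yet more IRs had the higher share in additional experiment 1 (775) than the lower (694). The median over IRs went the other way from the mean, 7.55% against 6.41%. At the 728 IRs with at least 30 mutated reads in both, the difference was -0.194 points with 363 IRs in each direction. At the 288 IRs with at least 100 mutated reads in both it was 8.68% ± 1.88 against 9.99% ± 3.82, a difference of -1.31 points, with a lower share in additional experiment 1 at 178 IRs and a higher share at 110. The complex share was thus slightly lower in additional experiment 1 at the best measured IRs, while its direction varied with the IRs and the average used.

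As percentages of all reads of an IR, and in means over IRs, knock-ins were higher and deletions lower in additional experiment 1. Over the 1744 IRs the mean knock-in frequency was 5.64% ± 6.78 in additional experiment 1 and 1.49% ± 3.05 in the reported experiment, and the deletion frequency 21.1% ± 15.6 and 25.7% ± 22.3. The insertion frequency was 5.35% ± 4.43 and 3.49% ± 4.36, and that of complex lesions 2.83% ± 2.81 and 2.75% ± 3.77. In means over IRs the experiments thus differed more in the kind of lesion than in mutation frequency, which does not hold for pooled reads or for the least mutated IRs. Pooled over the 1744 IRs, the direction for deletions turns, with 234796 deletion reads of 886650 reads in additional experiment 1 and 102870 of 2186390 in the reported experiment.

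For single IRs, shares were compared through 95% Wilson intervals, which cover counting error only, since the part that UIDs played in the deposited counts is not stated. For the knock-in share, 466 of 1633 IRs (28.5%) had an interval in additional experiment 1 wholly above that of the reported experiment and 2 (0.122%) wholly below. For the deletion share the counts were 11 above (0.674%) and 490 below (30%), and for the insertion share 170 above (10.4%) and 16 below (0.98%). For complex lesions they were 7 above (0.429%) and 62 below (3.8%). A larger share of IRs separated among the 288 with at least 100 mutated reads in both. These IRs are on average also more mutated, and depth and mutation frequency were not separated here. The knock-in interval was wholly above at 252 (87.5%), the deletion interval wholly below at 226 (78.5%), the insertion interval wholly above at 107 (37.2%) and wholly below at 3 (1.04%), and the complex interval wholly below at 42 (14.6%) and wholly above at 2 (0.694%). No knock-in interval lay wholly below and no deletion interval wholly above.

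The knock-in share was higher in additional experiment 1 in every bin of mutation frequency. Bins were 10 points wide and used the mean of both mutation frequencies of an IR, so that neither experiment alone placed an IR. In the bin from 0 to 10%, with 421 IRs, the mean knock-in share was 5.98% ± 12.1 in additional experiment 1 and 1.07% ± 6.62 in the reported experiment. In the bin from 40 to 50%, with 140 IRs, it was 12.9% ± 6.85 and 1.86% ± 4.59, and in the bin from 80 to 90%, with 121 IRs, 23.6% ± 5.16 and 8.69% ± 4.85. The bin from 90 to 100% held only 10 IRs, with 25.8% ± 4.02 and 10.1% ± 4.02.

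With bins of the mean mutation frequency, the mean share rose from each bin to the next in both experiments. Up to 50% mutation frequency it ran from 5.98% to 12.9% in additional experiment 1 and from 1.07% to 1.86% in the reported experiment. Whether the courses differ was not tested. The difference in points grew from 4.91 in the lowest bin to 14.9 in the bin from 80 to 90%. The ratio was highest at 7.99 in the bin from 20 to 30% and was 2.72 in the bin from 80 to 90%. The rise at every step depended on the binning. In the reported experiment it was lost under each alternative binning. Binned by the reported experiment, the share there fell from 1.88% in the bin starting at 10% to 1.60% in that starting at 30%. Additional experiment 1 fell only with those bins, from 11.7% in the bin starting at 20% to 11.2% in the next. Mutation frequency and knock-in share of an experiment were also compared at the 728 IRs with at least 30 mutated reads in both. Their r was 0.628 in additional experiment 1 and 0.508 in the reported experiment. Knock-in reads count in both measures, so these are linked by construction. IRs of the same founder share their cells and are not independent.

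**Figure D3:**
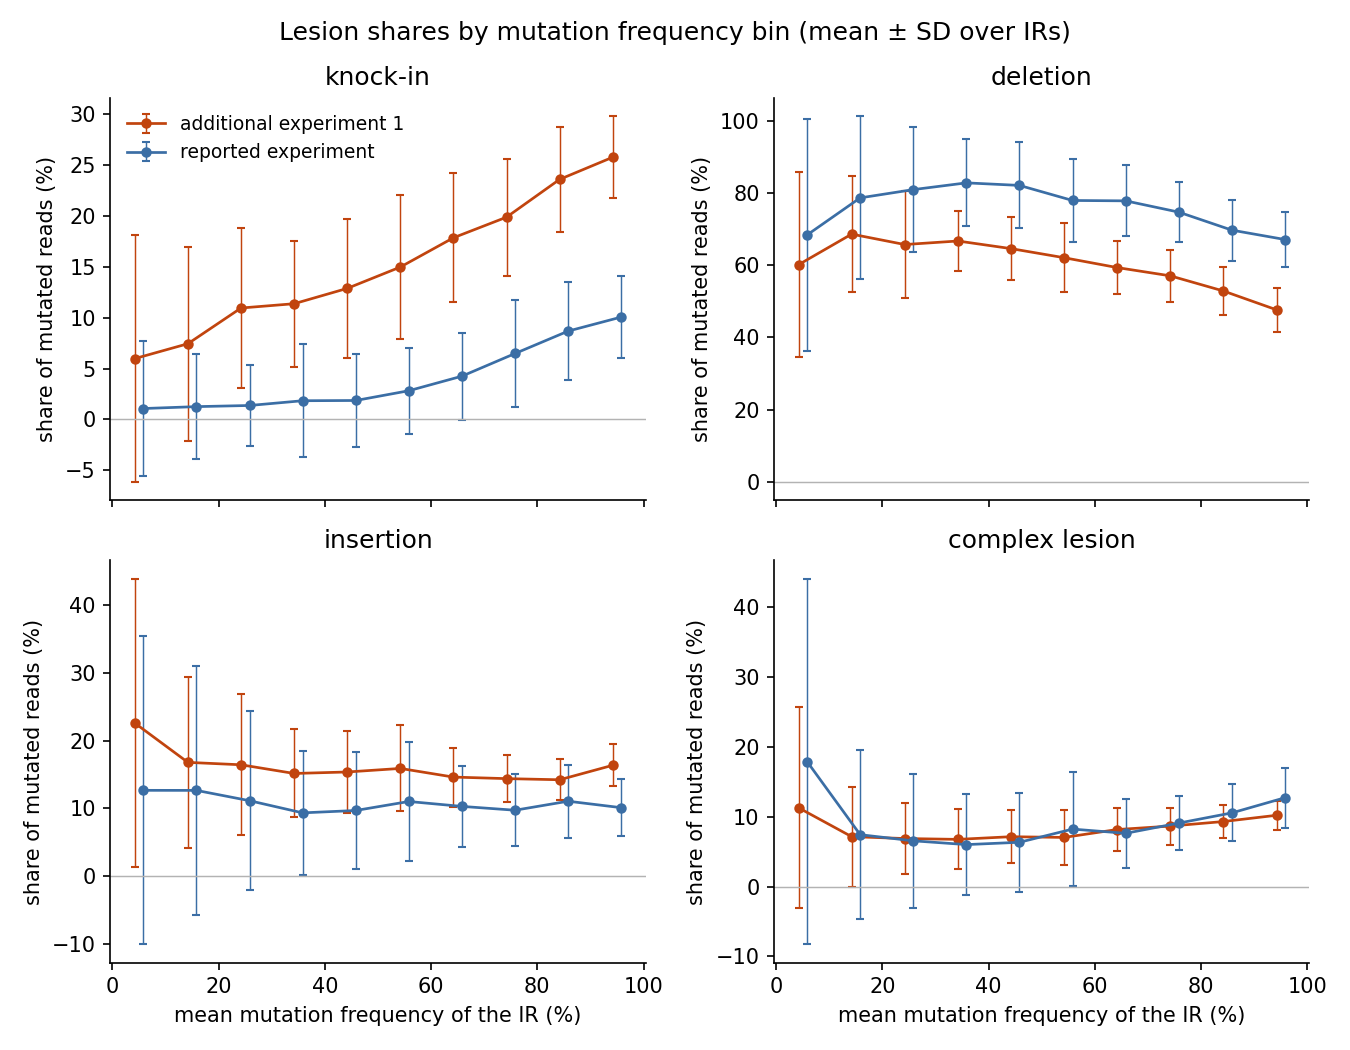
Mean share of mutated reads (%) of each lesion class by mean mutation frequency of the IR (%), for additional experiment 1 (orange) and the reported experiment (blue), over 1633 IRs in 10 bins. Bars are the SD over IRs and can pass 0 or 100%, which shares cannot; the knock-in line of additional experiment 1 lies above that of the reported experiment in 10 of 10 bins.

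Deletions changed over the bins at least as widely as knock-ins did, from 68.6% in the bin from 10 to 20% to 47.7% in the highest bin in additional experiment 1, and from 82.8% in the bin from 30 to 40% to 67.1% in the highest bin in the reported experiment. The deletion share was lower in additional experiment 1 in 10 of 10 bins, by most in the bin of 10 IRs from 90 to 100% (-19.5 points) and by least in the lowest bin (-8.23 points). The insertion share was higher in 10 of 10 bins. In the reported experiment it lay between 9.34% and 12.7% in all bins, and in additional experiment 1 it was 22.6% ± 21.3 in the lowest bin and between 14.2% and 16.8% in the others. The complex share was higher in additional experiment 1 in 4 bins and lower in 6, with the largest gap in the lowest bin, 11.3% ± 14.4 against 17.9% ± 26.1, where the median IR had 4 mutated reads in the reported experiment.

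The balance of knock-ins and insertions differed between the experiments. The mean knock-in share passed the mean insertion share in the 4 bins from 60% upward in additional experiment 1 and in 0 of 10 bins in the reported experiment. In the highest bin of the reported experiment both shares were 10.1%, and 6 of its 10 IRs had more knock-in than insertion reads. More knock-in than insertion reads were found at 605 of 1633 IRs (37.0%) in additional experiment 1 and at 166 (10.2%) in the reported experiment. At the 288 IRs with at least 100 mutated reads in both, the insertion share minus the knock-in share averaged -3.08 ± 8.27 points in additional experiment 1 and 4.35 ± 5.91 in the reported experiment.

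All 7 promoters showed the higher knock-in share in additional experiment 1. They comprise the CMV promoter, of viral origin, those of the pluripotency factors Nanog and Oct4, of the proto-oncogene cMyc, of the developmental regulator Hoxb1, of the tumour suppressor p53, and of PGK, a housekeeping gene of glycolysis. The mean share was lowest for CMV (11.2% ± 9.57, 210 IRs) and highest for Nanog (13.4% ± 11.9, 217 IRs) in additional experiment 1, and in the reported experiment it ran from 2.10% ± 3.78 for cMyc (159 IRs) to 3.07% ± 5.42 for Oct4 (198 IRs). The means of promoters thus differed by at most 2.18 points in additional experiment 1 and 0.974 in the reported experiment.

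The difference between the experiments was smallest for CMV, at 8.11 points, and largest for cMyc, at 11.1 points. For Hoxb1, the promoter with most IRs (572), it was 8.78 points, with a higher share in additional experiment 1 at 415 IRs and a lower share at 23. For PGK, with 60 IRs, it was 9.80 points, with 45 and 2 IRs. The spread of the difference over promoters was narrower at IRs with a mean mutation frequency above 50%, where it ran from 12.9 points for Oct4 (78 IRs) to 14.8 for PGK (16 IRs).

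Deletion shares were lower in additional experiment 1 for 7 of 7 promoters, by between -16.2 points for p53 and -12.3 for Oct4. Insertion shares were higher for 7 of 7, by between 3.37 points for cMyc and 7.88 for CMV. Complex shares were lower for 6 of 7 promoters, the exception being cMyc with 0.784 points, and above 50% mutation frequency they were lower for 7 of 7. IRs whose knock-in interval lay wholly above that of the reported experiment made up between 23.8% (CMV) and 35.9% (p53) of the IRs of a promoter.

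**Figure D4:**
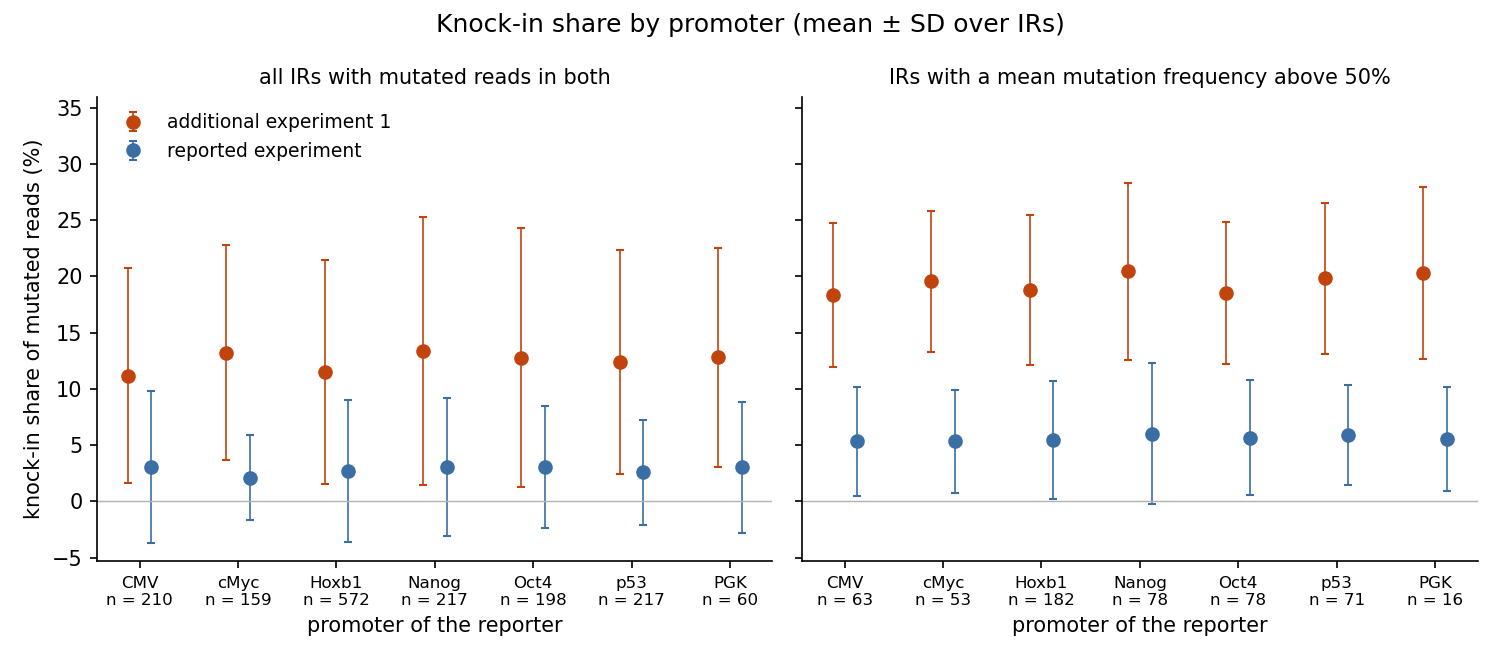
Mean knock-in share of mutated reads (%) with the SD over IRs as bars, by promoter, in additional experiment 1 (orange) and the reported experiment (blue), with the number of IRs under each name. The left panel holds all 1633 IRs and the right panel those with a mean mutation frequency above 50%; additional experiment 1 is higher for 7 of 7 promoters in both panels.

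Expression of the reporter, measured before Cas9 as the log2 ratio of cDNA to genomic DNA barcode counts, was known for 1743 of the compared IRs. IRs were split in 3 groups of 581 by this value. The knock-in share of additional experiment 1 was 11.0% ± 9.94, 12.0% ± 9.56 and 13.6% ± 11.3 from the least to the most expressed group, and that of the reported experiment 3.00% ± 5.78, 2.36% ± 4.71 and 2.99% ± 6.78. The mean rose from group to group in additional experiment 1 and did not in the reported experiment, and whether the experiments differ in this was not tested. Expression and knock-in share had r of 0.123 in additional experiment 1 and 0.00610 in the reported experiment over 1632 IRs. At the 728 IRs with at least 30 mutated reads in both, r was 0.256 and -0.0243. In both sets, IRs of the same founder share their cells and are not independent.

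The positions of the IRs showed no class of loci that went against the difference in knock-in share. By a GENCODE annotation of mm9, 857 of the 1744 IRs lay in a gene, 790 of them in an intron, and 887 between genes. The mean knock-in share was 12.6% ± 10.8 against 2.79% ± 5.48 at IRs in genes and 11.8% ± 9.86 against 2.78% ± 6.16 between genes. At the 14 IRs in coding exons it was 13.7% ± 9.01 and 3.59% ± 6.48. At the 34 IRs in untranslated regions with mutated reads in both it was 12.8% ± 10.0 and 2.10% ± 3.35. At the 18 IRs in exons without coding sequence it was 12.9% ± 9.00 and 4.74% ± 11.9. On 20 of 20 chromosomes the mean was higher in additional experiment 1, with differences from 7.26 points on chromosome 19 (40 IRs) to 11.9 on chromosome 2 (120 IRs).

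Some IRs are named to show single loci, chosen for their reads or, where stated, for the difference itself. PiggyBac integrates at TTAA, which was found in the genome at 1684 of the 1744 positions. The genomic plus strand around 4 of the integration sites is printed with the TTAA in capitals, for the pair of IRs with most mutated reads and for the largest difference in each direction.
IR1081: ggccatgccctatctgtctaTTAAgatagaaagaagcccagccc
IR52285: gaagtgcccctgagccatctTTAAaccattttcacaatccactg
IR8109: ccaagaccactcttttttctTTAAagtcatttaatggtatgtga
IR38637: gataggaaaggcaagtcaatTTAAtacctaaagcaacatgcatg
These windows are chr1:54217381-54217424, chr17:31220734-31220777, chr2:154717664-154717707 and chr11:116657492-116657535 of mm9.

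IR1081, with the p53 promoter, lies in an intron of Hecw2, which encodes a ubiquitin ligase, and had most mutated reads in the experiment where it had fewer. Its mutation frequency was 89.9% in additional experiment 1 and 89.8% in the reported experiment, with 7796 and 2578 mutated reads. Knock-ins were 22.2% of them (95% interval 21.3 to 23.2) and 10.2% (9.13 to 11.5). Deletions were 52.2% and 65.1%, insertions 15.3% and 11.9%, and complex lesions 10.3% and 12.8%, so at equal mutation frequency the lesion classes were divided differently.

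IR52285, with the Hoxb1 promoter, lies in an intron of Abcg1, which encodes a cholesterol transporter. Its mutation frequency was 80.2% and 80.5%, and knock-ins were 20.7% (19.7 to 21.7) of 6539 mutated reads in additional experiment 1 and 8.03% (6.91 to 9.31) of 1980 in the reported experiment. Next in mutated reads were IR35458 in an intron of Grb10, a growth factor receptor adaptor, with knock-in shares of 23.0% and 5.05%, and IR32205 in an intron of Hivep2, a zinc finger transcription factor, with 19.4% and 9.71%. IR55289, between genes and 16896 bases from Tcof1, had 24.7% and 8.60%. At all 5 of these deeply read IRs the intervals of the experiments did not overlap.

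The largest positive differences among the 288 IRs, chosen by this outcome and given as a description, were at IR8109, IR14915 and IR18008. IR8109, with the Nanog promoter in an intron of the coat colour gene a (agouti), had knock-in shares of 29.9% (25.8 to 34.4) and 3.70% (1.45 to 9.14), a difference of 26.2 points. IR14915, between genes and with the Hoxb1 promoter, had 29.2% and 3.70%, and IR18008, 303 bases before the zinc finger gene Zfp326 and with the p53 promoter, had 27.4% and 1.92%. In the reported experiment these shares rest on 4, 5 and 2 knock-in reads. In additional experiments 2, 3 and 4 IR8109 had knock-in shares of 10.3%, 14.6% and 17.6%. IR14915 had 16.8%, 2.60% and 10.1% there, and IR18008 had 21.25%, 7.55% and 5.63%.

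Only 2 of the 288 IRs had the lower knock-in share in additional experiment 1. IR38637, with the Hoxb1 promoter, between genes and 1677 bases from Gm17558, had 21.6% (16.7 to 27.3) in additional experiment 1 and 25.9% (19.5 to 33.5) in the reported experiment. IR21971, with the Hoxb1 promoter in an intron of Ankrd26, had 10.2% (7.53 to 13.7) and 14.2% (8.91 to 21.8). At both IRs the intervals overlapped, so the lower share was within counting error.

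IR38637 stood out in the reported experiment, where its knock-in share was the highest of the 288 IRs. In the other ssODN experiments it had 19.6% of 445 mutated reads in additional experiment 2, 0% of 103 in additional experiment 3 and 1.67% of 120 in additional experiment 4. Since this IR was picked for its extreme value, these numbers describe it alone.

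The next result places both experiments among the other ssODN experiments with sgRNA2 in the same pool. At 1184 IRs with at least 30 reads and a mutated read in all 5 of them and in sgRNA2 without ssODN, the mean knock-in share was 13.2% ± 9.39 in additional experiment 1 and 3.30% ± 5.97 in the reported experiment. It was 7.56% ± 6.86 in additional experiment 2, 2.81% ± 5.68 in additional experiment 3, labelled with 1 µM ssODN, and 3.20% ± 5.41 in additional experiment 4, labelled with 8 µM. Additional experiment 1 thus had the highest mean of the 5, and the reported experiment lay near additional experiments 3 and 4.

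IR by IR, additional experiment 1 had the higher knock-in share at 975 of 1184 IRs against the reported experiment, at 860 against additional experiment 2, at 974 against additional experiment 3 and at 983 against additional experiment 4. Its mutation frequency was not the highest, with 41.5% ± 27.2 against 46.7% ± 30.9 in additional experiment 2 and 40.4% ± 29.2 in the reported experiment. The insertion share separated it further, with 16.9% ± 11.0 in additional experiment 1 and between 10.1% and 11.5% in the other ssODN experiments. Additional experiment 2, whose counts carry the same number in their name as the reported experiment, had an intermediate mean knock-in share. It lay between those of the reported experiment and additional experiment 1.

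**Figure D5:**
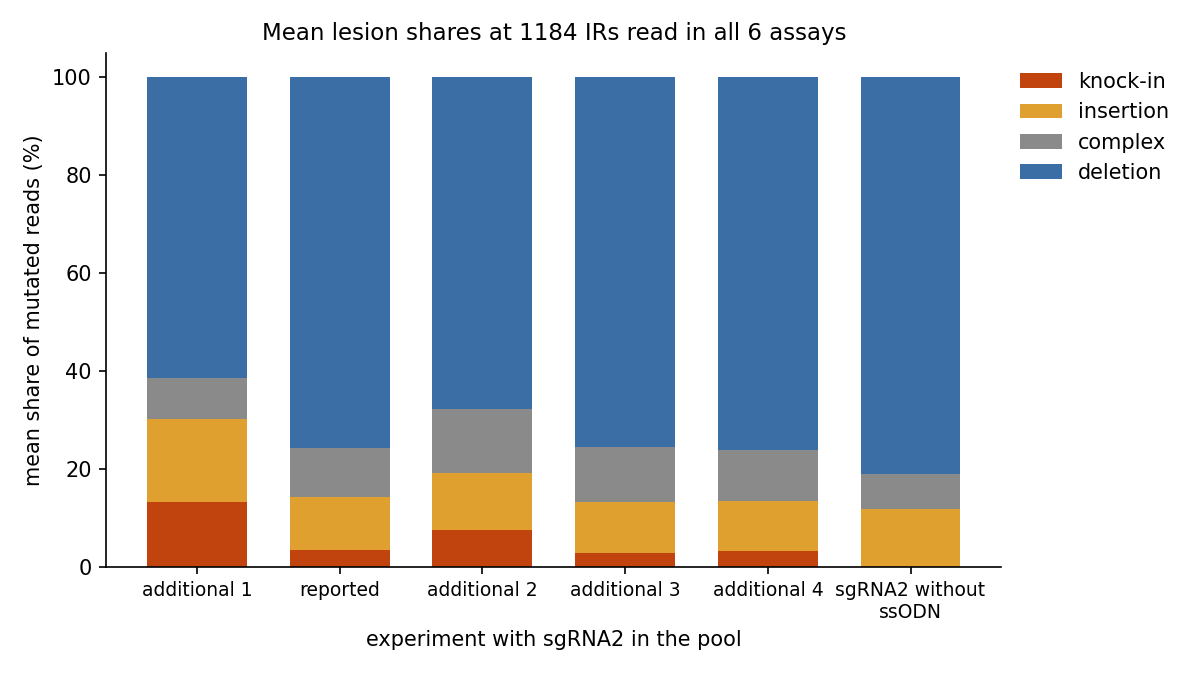
Mean shares of mutated reads (%) of the 4 lesion classes, stacked, at 1184 IRs read in 5 ssODN experiments and in sgRNA2 without ssODN, where knock-ins were not counted. Additional experiment 1 has the highest knock-in share (13.2%) of the 5 ssODN experiments and the highest insertion share (16.9%) of the 6 assays.

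The assay without ssODN has no knock-in count, so it gives no background for that class, but it gives the other classes. With knock-in reads left out, 1287 IRs had deletion, insertion or complex reads in both experiments and in that assay. Insertions then made up 19.6% ± 13.0 of reads in additional experiment 1, 11.3% ± 12.9 in the reported experiment and 11.6% ± 16.6 without ssODN. Deletions made up 70.6% ± 15.7, 78.1% ± 18.6 and 81.1% ± 19.9. The insertion share of additional experiment 1 was above that of the assay without ssODN at 970 IRs and below at 243, while the reported experiment was above at 585 and below at 494. The gain in insertions in additional experiment 1 was therefore also seen relative to deletions and complex lesions alone.

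Reads were shared out over IRs in different ways in the experiments. In the reported experiment 18 IRs with over 1% of its reads each held 81.9% of them, and the same IRs held 20.9% of the reads of additional experiment 1. They were little mutated, with a mean mutation frequency of 1.27% in the reported experiment and 7.12% in additional experiment 1, and their pooled knock-in share was 1.18% and 4.89%. The knock-in share was higher in additional experiment 1 at 18 of these 18 IRs.

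More widely, 359 IRs had more reads in the reported experiment although the median IR had more in additional experiment 1. Their mean mutation frequency was 6.43% ± 15.0 in the reported experiment and 10.4% ± 14.5 in additional experiment 1, against 40.6% ± 28.1 and 41.4% ± 26.3 at the 1379 IRs with more reads in additional experiment 1. Their knock-in share was 1.53% ± 7.59 and 7.16% ± 13.2 in the same order, against 3.10% ± 5.28 and 13.5% ± 9.10 at the 1379 IRs. The knock-in share was thus higher in additional experiment 1 in both sets of IRs, and the part of read distribution in its size was not tested.

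IRs just inside and just outside the minimum of 30 reads did not stand apart. The 141 IRs with 30 to 39 reads in the experiment where they had fewer, and mutated reads in both, had mean knock-in shares of 10.6% and 2.45%. The 179 IRs with 20 to 29 reads had 11.9% and 3.12%.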

How the data were processed

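The authors aligned reads to the reporter, called lesions per barcode and deposited read counts per barcode entry and lesion class for each pool experiment, without normalization, joined to IRs mapped on mm9 (Bowtie2 2.0 in the submitters' processing notes). For the cell line the authors deposited reads with a lesion class and an alignment score, and reads without a score value served only to read the wild-type site. Barcode counts in cDNA and genomic DNA, deposited without normalization, were scaled to equal totals with 1 count added, leaving out IRs with under 10 genomic DNA counts in a replicate. Means, shares and 95% Wilson intervals were computed in Python 3.11.15 with numpy 2.4.6, pandas 2.3.3 and scipy 1.17.1, and checked on simulated data. Named IRs were the 5 with most mutated reads and the 3 with the largest differences in each direction among IRs with at least 100 mutated reads in both. Only 2 IRs had a negative difference. The members and lists were chosen with earlier results of these data known. The authors' 3 value columns of the pool tables on expression and modelled values and 14 mapping columns of the expression table were not used. Alternatives covered read and mutated-read minimums, entries, averaging, bins, promoters and intervals.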

Additional observations from a re-analysis of the deposited data

How the results depend on the processing

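Differences are additional experiment 1 minus the reported experiment, in percentage points, and 60 of 108 values recomputed under another choice stayed within the counting error or within 1.5 times the count given. No paired analysis of replicates was possible because each experiment is 1 table in which replicates are merged. The knock-in share difference was above 0 under 10 of 10 alternatives (9.18 to 12.8), the deletion difference below 0 under 11 of 11 (-17.0 to -7.37) and the insertion difference above 0 under 11 of 11 (3.65 to 8.17). With reads pooled over IRs the differences were 12.8 for knock-ins, -14.6 for deletions, 3.65 for insertions, 38.7 for mutation frequency and 7.76 for knock-ins of all reads. Without the IRs that hold over 1% of the reads of the reported experiment, an alternative chosen after seeing the data, these became 12.5, -16.0, 4.28, 25.3 and 8.38, with -0.809 for complex lesions. As medians over IRs they were 11.6, -16.0, 7.05, 0.357 and 2.97, and the complex difference turned to 1.14. With at least 10 mutated reads in both, differences were 11.2 for knock-ins, -15.7 for deletions, 4.92 for insertions and -0.464 for complex lesions, and with at least 30 they were 12.3, -17.0, 4.89 and -0.194. With at least 100 reads per IR, deletions differed by -13.0, insertions by 7.23, complex lesions by -3.36, mutation frequency by 2.33 and knock-ins of all reads by 4.31, and with at least 10 reads the last pair by 1.73 and 3.95. At IRs also read in both assays without ssODN, knock-ins of all reads differed by 4.60. Without complex reads the knock-in and deletion differences were 10.3 and -16.6, and without knock-in reads, chosen after seeing the data, deletions differed by -7.37, insertions by 8.17 and complex lesions by -0.797. Binned by additional experiment 1, the complex share was higher in 6 bins, and binned by sgRNA2 without ssODN the knock-in difference from 80 to 90% was 13.7. Over promoters the knock-in difference ran from 10.6 to 13.1 with at least 10 mutated reads and from 12.9 to 14.8 above 50% mutation frequency, where the complex share was higher for 0 promoters. With Clopper-Pearson intervals, knock-ins were wholly lower at 1 IR, deletions wholly higher at 6 and insertions wholly lower at 9, which wider intervals give by construction. Elsewhere the cause was not tested. A complex share without complex reads has no value. Bins with at least 10 mutated reads, chosen after seeing the data, kept 10 of 10 bins above 0 for knock-ins.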
